A study of Mus musculus with 2 samples.

Results

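Known miRNAs of mouse brain were sequenced together with many copies that carried 1 extra base at the 3′ end, and these single-base additions are described here. A tag is a distinct sequence with its number of reads. A reference tag was a tag that alone held both read counts of a known miRNA name and had at least 1000 reads over both libraries. A member was a tag equal to a reference tag plus exactly 1 base. The members were thus chosen by the reads of their reference tags, and by no read of their own. There were 86 reference tags for 87 names, since miR-199a-3p and miR-199b share one. The names listed numbered 558, and 199 of them had a tag of their own. Of the 344 possible additions, 328 were seen, out of 789591 distinct tags in all. The 16 that were not seen were 10 additions of C and 6 of G. Just inside the minimum lay miR-410 with 1011 reads and miR-148b with 1016, and just outside it lay miR-137 with 976 and miR-411 with 916.

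The data came from whole brains of male mice of the inbred strain C57BL/6J, at 5 months (young) and at 24 to 25 months (old). Each age was represented by 1 library, which combined the cDNA libraries of 2 mice. RNA of 18 to 30 nucleotides had been cut from a gel, so RNAs outside this range were not sampled. The young library held 4523267 reads and the old 6658732. With 1 library per age there is no test across ages, and age cannot be told apart from library. The intervals below are 95% Wilson intervals of shares, or 95% counting intervals of ratios. They cover only the sampling of reads, which come from PCR and can be copies of each other, and they compare the libraries and not the ages. The 5 brain-enriched miRNAs of the marker list all had a tag, with 16706 RPM (read counts scaled to the same library total) in sum in the young and 9628 in the old library. Of the 4 muscle miRNAs, 2 had a tag of their own by the rule above, with 5406 and 8493 RPM. The liver marker miR-122 had 68.3 and 38.9 RPM, the 2 blood markers had 162 and 89.7 in sum, and the 2 neuroendocrine markers had 814 and 569. These values count only the tag of each name, and a name without such a tag can still have reads. Over all tags with the same first 18 bases, the brain markers had 74409 RPM in the young and 37820 in the old library. On that count the muscle markers had 7454 and 10867, liver 196 and 123, blood 566 and 298, and neuroendocrine 2700 and 1950. The part of these differences in the results below was not tested.

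A mature miRNA is cut from a hairpin precursor by Drosha and Dicer. When the cut falls 1 position further along, the extra base is the one the genome encodes, which is called templated here. Bases that the genome does not encode are added to finished 3′ ends by terminal nucleotidyltransferases. TENT2 (GLD-2) adds adenosine, and TUT4 and TUT7 add uridine, which is read as T. Additions at the 3′ end leave the seed, the bases 2 to 8 that pair with target mRNAs, as they were. Tails of this kind are known to accompany changes in the stability of some miRNAs. In the counts below, a member was called templated when its last base equalled the mm9 base that follows the reference tag at any of its perfect matches. An enzymatic addition that equals this mm9 base is therefore counted as templated too. T follows 38 of the 86 reference tags and A follows 12, so non-templated T could be counted on fewer tags than non-templated A.

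The following members had the highest shares of non-templated T. They are printed 5′ to 3′ with the seed and the added base in capitals.
miR-341 plus T: tCGGTCGAtcggtcggtcggtT
miR-24 plus T: tGGCTCAGttcagcaggaacagT
miR-132 plus T: tAACAGTCtacagccatggtcgT
let-7i plus T: tGAGGTAGtagtttgtgctgttT
miR-744 plus T: tGCGGGGCtagggctaacagcaT

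The positions of the reference tags are those in mm9 (NCBIM37). The tag of miR-341 lies at chr12:110849766-110849786 on the plus strand, in an intron of the long noncoding RNA Rian, and is followed by C. The tag of miR-24 lies at chr8:86732774-86732795 in Mir24-2 and at chr13:63402559-63402580 in an intron of 2010111I01Rik, both on the plus strand and both followed by G. The tag of miR-132 lies at chr11:74987225-74987246 on the plus strand, in an intron of the noncoding gene 1700016P03Rik, and is followed by C. The tag of let-7i lies at chr10:122422754-122422775 on the minus strand in Mirlet7i, outside any other annotated gene, and is followed by G. The tag of miR-744 lies at chr11:65548301-65548322 on the minus strand, in an intron of Map2k4, and is followed by G.

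The next members had high shares of non-templated A and are shown for comparison with those that took T.
miR-30d plus A: tGTAAACAtccccgactggaagA
miR-101a plus A: tACAGTACtgtgataactgaaA
miR-379 plus A: tGGTAGACtatggaacgtaggA
miR-100 plus A: aACCCGTAgatccgaacttgtgA

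The tag of miR-30d lies at chr15:68172819-68172840 on the minus strand between genes, and is followed by C. The tag of miR-101a lies at chr4:101019562-101019582 on the minus strand, in an exon of the noncoding transcript E130102H24Rik, and is followed by G. The tag of miR-379 lies at chr12:110947275-110947295 on the plus strand between annotated genes, and is followed by C. The tag of miR-100 lies at chr9:41339520-41339541 on the plus strand, in an intron of the noncoding gene D230004N17Rik, and is followed by C.

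Single-base additions were a sizeable part of the reads of these miRNAs in both libraries. Members held 472558 of the 2231953 reads on reference tags and their additions in the young library, or 21.2% (21.1 to 21.2). In the old library they held 680867 of 3697028 reads, or 18.4% (18.4 to 18.5). Members were 10.4% of all reads of the young library and 10.2% of those of the old. Templated bases held 261399 of the young and 345817 of the old member reads. For 29 of the 86 reference tags, another tag with the same first 18 bases had more reads. A member can therefore be the more abundant form, with the reference tag the shorter one. Pooled shares also depend on how many reads each reference tag gave in each library. With the same weights in both libraries, as given below, templated bases, non-templated A and non-templated T each had a higher share in the old library. Throughout, the share of a member is its reads over the reads of its reference tag and all 4 single-base additions. Pooled over the reference tags, templated bases made up 11.7% of these reads in the young library and 9.35% in the old. Non-templated A made up 5.94% and 6.74%, and non-templated T 3.30% and 2.09%. Non-templated G made up 0.183% and 0.192%, and non-templated C 0.0435% and 0.0441%. A and T were thus the main non-templated bases in each library, and C and G were rare.

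A and T also stood far above C and G when each base was counted only on reference tags where it could not be templated, but T then exceeded A. T made up 14.8% in the young and 16.4% in the old library on 48 reference tags. A made up 6.36% and 6.97% on 74 reference tags. G made up 0.240% and 0.264% on 63, and C 0.0469% and 0.0458% on 67. Set against the templated reads of the same reference tags, the reads with non-templated A came to 72.3% of them in the young library and 85.6% in the old. For T the values were 69.2% and 95.1%, for G 1.77% and 2.44%, and for C 0.439% and 0.527%. The values for T lean on 1 miRNA. The templated A of miR-124 held 62598 of the 106405 templated reads set against T in the young library. In the old library it held 39087 of 81236. The templated A of miR-124 is also among the reads set against G and C.

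Non-templated A was seen on all 74 reference tags where A was not templated. Its median share was 5.08% in the young and 5.27% in the old library, and it ranged over both libraries from 0.115% for miR-7b to 36.5% for miR-30d. The reference tag of miR-30d had 765 young and 663 old reads, and its A addition had 903 and 1027. The A form therefore outnumbered the reference tag in both libraries. Its share was 33.1% (31.4 to 34.9) in the young and 40.1% (38.2 to 42.0) in the old library, a log2 ratio of old over young of 0.28 (0.17 to 0.38).

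miR-101a, for which the reference tag had 6883 young and 5025 old reads, had 5551 and 4312 reads with A. Its share of A was 32.7% and 33.5%, and the intervals of both libraries overlapped. miR-379 had 459 young and 347 old reads with A, or 30.9% and 27.9%, and miR-100 had 320 and 356, or 22.2% and 20.4%. miR-378 had 24.0% and 23.3%. For these 4 miRNAs the interval of the ratio of old over young held 0 on the log2 scale.

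Non-templated T was seen on all 48 reference tags where T was not templated, and a few of them stood far above the rest. The median share was 5.52% in the young and 6.41% in the old library. The reference tag of miR-341 had 1597 young and 646 old reads, and its T addition had 7882 and 3505. The share of T was 79.0% (78.2 to 79.8) and 80.7% (79.5 to 81.8), so most reads of this miRNA with up to 1 added base carried a T that mm9 does not encode there. miR-24 had 1559 young and 2289 old reads of the reference tag and 3261 and 5136 with T. Its T share was 65.1% (63.7 to 66.4) and 67.0% (65.9 to 68.0).

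For the other members high in T, the reference tag was near or above the T form. let-7i, a member of the let-7 family that represses cell growth genes, had 54878 young and 55508 old reads of the reference tag and 31425 and 38311 with T. Its share was 32.1% in the young and 35.7% in the old library, and the log2 ratio was 0.15 (0.13 to 0.17). These were the most reads with non-templated T of any reference tag. miR-132, a miRNA induced by neuronal activity, had 538 and 654 reads of the reference tag and 394 and 349 with T. Its share of 41.3% (38.2 to 44.5) in the young library and 34.0% (31.2 to 36.9) in the old gave a log2 ratio of -0.28 (-0.45 to -0.12). miR-744 had 1260 young and 820 old reads with T, or 26.01% and 30.8%, with a log2 ratio of 0.24 (0.14 to 0.35). T therefore took a higher share of let-7i and miR-744 and a lower share of miR-132 in the old library.

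At the other end, miR-21 had 18 young and 33 old reads with non-templated T, which was 0.391% over both libraries and the lowest share of the 48. T is also the first base of the 3′ adapter that had been removed, so a read from which the adapter was cut 1 base too late would be counted with T. A read cut 2 bases too late would go on with C. A cut exactly 1 base too late leaves no TC, so how many of the T reads come from it was not tested. Additions of TC to reference tags where T was not templated came to 0.186% of the T reads in the young and 0.296% in the old library. Additions of TT came to 10.4% and 12.3%, and additions of TA to 2.90% and 3.03%.

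Whether a miRNA took more A or more T could be read directly on the 37 reference tags followed by neither base. In each library 19 of them had more A and 18 had more T. The leading base was the same in both libraries for 31. The other 6 were miR-99a, miR-1298, miR-434-3p, miR-485, miR-541 and the tag shared by miR-199a-3p and miR-199b. miR-99a was nearly even, with 893 A and 832 T reads in the young library and 624 and 665 in the old. Few reads were behind miR-541, with 8 A and 13 T in the young and 2 and 1 in the old library. The same held for miR-434-3p, with 12 and 15 in the young and 7 and 6 in the old. The shared tag had 22 and 29 in the young and 65 and 64 in the old. By arm of the precursor, T led over both libraries on 8 of 19 tags from the 5p arm and on 11 of 15 from the 3p arm. Over all reference tags where T was not templated, the median T share was not higher on the 3p arm. It was 5.17% in the young and 5.80% in the old library on the 5p arm, and 4.40% and 5.62% on the 3p arm. The median share of non-templated A was 5.95% and 6.63% on the 5p arm, and 2.89% and 2.90% on the 3p arm. The cause was not tested. The highest T shares, those of miR-341, miR-24 and miR-132, were all on the 3p arm, and those of let-7i and miR-744 on the 5p arm.

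The last base of the reference tag went with the A share. The 16 tags that ended in G and could take non-templated A had a median A share of 11.3% in the young and 10.7% in the old library. The 15 that ended in A had 5.12% and 6.63%, and the 41 that ended in T had 3.26% and 3.39%. The 2 that ended in C had 4.05% in each library. These medians describe the tags, and members of a family share sequence.

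The rank of the reference tags was much the same in both libraries. Over the 62 reference tags with at least 20 reads of non-templated A in each library, the log2 shares in the young and the old library had Pearson's r of 0.989 and Spearman's rho of 0.981. Over the 39 such tags for T, r was 0.989 and rho 0.985. The points share the 2 libraries, their preparation and the same base composition in each. The median size of the log2 ratio was 0.14 for A and 0.19 for T. The young shares themselves spanned 6.68 log2 units for A and 6.09 for T. Differences between miRNAs were thus far wider than those between the libraries.

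Non-templated C and G were rare on all reference tags. Among tags with at least 20 such reads in each library, the highest C shares over both libraries were those of miR-101a with 0.436%, miR-124 with 0.212%, miR-26a with 0.198%, miR-185 with 0.195% and let-7b with 0.150%. With the same minimum, the highest G shares were those of miR-185 with 0.684%, let-7a with 0.570%, miR-192 with 0.502%, let-7d with 0.483% and let-7g with 0.404%. For let-7g this was 2173 young and 3966 old reads, with 0.404% in each library. As a measure of other bases near the end, the second-last base of the reference tags was counted when replaced. Such a read can hold a changed base, or it can be a shorter tag with 2 added bases. The 2 cases were not told apart. For the 48 reference tags of 22 bases this is base 21 of the read. That base was undetermined in 16469 young and 595 old reads over all tags. Replacement by G came to 0.0886% of the reference reads in the young and 0.0720% in the old library, and replacement by C to 0.180% and 0.0804%. Counted where the base is not templated, C lay below that measure in both libraries and G above it. Replacement by A came to 0.444% and 0.313%, of which miR-29a held 4264 of 7634 and 6065 of 9234 reads. Replacement by T came to 1.25% and 1.47%, of which miR-219-3p held 2206 of 4024 and 2406 of 4738. The replaced tags then end in AA for miR-29a and in TT for miR-219-3p, which 2 bases added to a shorter tag would also give. The cause was not tested.

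Templated bases had the widest range. For 13 reference tags the templated addition had more reads than the reference tag. The highest shares over both libraries were those of miR-124 with 93.6%, miR-26b with 86.9%, miR-485 with 82.3%, miR-140* with 78.2% and miR-181b with 72.5%. miR-124, a miRNA of neurons, had 1795 young and 842 old reads of its reference tag of 20 nucleotides, and 62598 and 39087 with the templated A. Its reference tag was therefore the minor form in both libraries. The added base of this tag is base 21 of the read, where 318 young reads and 0 old reads of the tag had an undetermined base. Undetermined bases were found in 4.57% of all young and 1.07% of all old reads. miR-26b had 262 and 836 reads of its reference tag and 2363 and 7425 with the templated T. Reads 1 base shorter than the reference tag came to 20.2% of the reference reads in the young and 17.3% in the old library.

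miR-140* shows a templated and a non-templated addition on the same tag, and its sequences are printed with the reference tag first.
miR-140*: tACCACAGggtagaaccacgg
miR-140* plus A: tACCACAGggtagaaccacggA
miR-140* plus T: tACCACAGggtagaaccacggT

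The tag lies at chr8:110075188-110075208 on the plus strand, in an intron of Wwp2, and is followed by A. The templated A form had 7683 young and 7402 old reads against 1825 and 1714 of the reference tag. Its share was 78.8% and 77.5%. The non-templated T form had 212 and 406 reads, a share of 2.18% (1.90 to 2.48) and 4.25% (3.86 to 4.67). This gave a log2 ratio of 0.97 (0.73 to 1.20), the largest for non-templated T among the 39 tags with at least 20 such reads in each library.

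Reference tags with the same seed did not always take the same base. Of the 86, 34 shared their seed with another, in 12 groups. The miR-148 and miR-152 group differs in a few bases after the seed, and these sequences are printed because their ends differ.
miR-152 plus T: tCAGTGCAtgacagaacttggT
miR-148b plus T: tCAGTGCAtcacagaactttgtT
miR-148a plus T: tCAGTGCActacagaactttgtT

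The tag of miR-152 lies at chr11:96711753-96711773 on the plus strand, in an intron of Copz2. The tag of miR-148b lies at chr15:103115616-103115637 on the plus strand, in an intron of Copz1, and that of miR-148a at chr6:51219828-51219849 on the minus strand between genes. miR-152 carried T in 23.7% of its young and 25.1% of its old reads. miR-148b carried it in 16.1% and 19.0%. miR-148a carried it in 0.690% (0.316 to 1.496) and 1.19% (0.628 to 2.25), on 6 and 9 reads. The interval of miR-148a lay below those of the other members of its seed group in each library.

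The pair miR-101a and miR-101b differed in a similar way. T made up 17.6% and 18.0% of miR-101a and 1.89% and 1.72% of miR-101b, while the templated G made up 8.55% and 9.14% of miR-101a and 67.4% and 70.6% of miR-101b. In the group of miR-99a, miR-99b and miR-100, A ranged from 15.4% to 22.2% in the young library and from 14.4% to 20.4% in the old. In the group of miR-30a and miR-30d, A made up 17.1% and 33.1% in the young and 18.3% and 40.1% in the old library. In the group of miR-29a, miR-29b and miR-29c, it made up 1.44%, 3.26% and 0.854% in the young library and 1.46%, 2.90% and 0.908% in the old. The order of the members was the same in both libraries in each of these 3 groups.

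The let-7 family held most of the reads. let-7g had 1373899 reads of its reference tag over both libraries, let-7f 800944, let-7c 683833 and let-7a 135657, and miR-29a, the only other in the first 5, had 599918. Non-templated A made up 5.16% of let-7g in the young and 6.20% in the old library, and the log2 ratio was 0.26 (0.24 to 0.28). It made up 7.83% and 8.43% of let-7f, 8.63% and 9.44% of let-7a, and 8.19% and 8.20% of let-7c. In all 8 let-7 tags the share of A was higher in the old library, with medians of 8.14% and 8.90%. For let-7b and let-7c the interval of the ratio held 0. T is templated after 6 of the 8 and was non-templated after let-7e and let-7i. let-7e had 1846 young and 5022 old reads with T, or 12.4% (11.9 to 13.0) and 15.2% (14.8 to 15.5). Members of this family differ by few bases, so a read error inside a tag can move a read from one to another.

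Compared between the libraries, the pooled shares and the shares of single miRNAs did not point the same way. The pooled share of non-templated A had a log2 ratio of old over young of 0.18 (0.17 to 0.19). Among the 62 reference tags with at least 50 reads of it, the share was higher in the old library in 31 and lower in 31, with a median log2 ratio of -0.01. The interval lay above 0 for 14, below 0 for 6 and held 0 for 42. Without let-7 and miR-98 the pooled ratio for A was -0.17.

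The pooled share of non-templated T had a log2 ratio of -0.66 (-0.67 to -0.64). Among the 41 reference tags with at least 50 reads of it, however, the share was higher in the old library in 36 and lower in 5, with a median of 0.15. The interval lay above 0 for 14, below 0 for 3 and held 0 for 24. The templated share had a pooled log2 ratio of -0.32 (-0.33 to -0.32), and the share was higher in 43 and lower in 21 of 64 reference tags, with a median of 0.07. Here the interval lay above 0 for 23, below 0 for 8 and held 0 for 33.

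The libraries differed in how many reads each reference tag gave. let-7g and its additions had 538372 young and 982000 old reads, let-7f 219975 and 704976, and let-7c 257116 and 597114. On these 3, T is templated, so they add to the total and not to non-templated T, which had 73606 young and 77272 old reads in all. miR-124 and its additions had 67041 young and 41539 old reads. When each reference tag was given the same weight in both libraries, by its reads over both, non-templated T made up 2.44% in the young and 2.65% in the old library, a log2 ratio of 0.12. Templated bases then made up 9.77% and 10.5%, a log2 ratio of 0.10, and non-templated A 6.12% and 6.61%, a log2 ratio of 0.11. Counted only on the 48 reference tags where T is not templated, the log2 ratio for T was 0.14 (0.13 to 0.16). These weightings were chosen after the data had been seen.

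Among single miRNAs, large differences between the libraries were few. Of the 194 members with at least 50 reads, 7 had a share at least 1.5-fold higher in the old library (3.61%) and 3 a share at least 1.5-fold lower (1.55%). The members are themselves the background of this count, so nothing is read from it beyond the number. The 7 were T on miR-140*, miR-30a and miR-344, A on miR-130a, C on miR-185, and the templated G on miR-744 and miR-146b. The 3 were C on miR-26a, A on miR-9 and the templated C on miR-541. Several of these rested on few reads. T on miR-344 had 18 young and 32 old reads, and the interval of its log2 ratio held 0 (-0.16 to 1.48). C on miR-185 had 21 and 32 reads, and the templated G on miR-744 had 36 and 37. A on miR-130a had 11 young and 50 old reads, a log2 ratio of 1.45 (0.52 to 2.38), and C on miR-26a had 27 and 24, a log2 ratio of -1.44 (-2.23 to -0.65).

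Others of these members rested on more reads, among them T on miR-140*, given above. T on miR-30a had 110 young and 149 old reads, or 1.16% and 1.92%, with a log2 ratio of 0.73 (0.38 to 1.09). The templated G on miR-146b, a miRNA of the response to NF-kappaB, had 160 and 260 reads, or 14.1% and 21.4%. The templated C on miR-541 had 237 and 62 reads, or 17.0% and 8.28%, with a log2 ratio of -1.04 (-1.42 to -0.65). A on miR-9, a miRNA of neural progenitors and neurons, had 367 and 263 reads against 6673 and 7361 of the reference tag. Its share was 5.12% (4.63 to 5.65) and 3.40% (3.02 to 3.83), a log2 ratio of -0.59 (-0.81 to -0.37).

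T on miR-9 was lower in the old library too, with 115 and 93 reads and a log2 ratio of -0.42 (-0.81 to -0.02). Both A and T were also lower on miR-26a. Its A addition had 721 young and 1410 old reads, or 9.57% and 7.75%, and its T addition had 1370 and 2751 reads, or 18.2% and 15.1%. On miR-24 the share of A was 3.47% and 2.64%, a log2 ratio of -0.40 (-0.69 to -0.11), while that of T was near even. A on miR-433 was 4.09% and 3.40%, a log2 ratio of -0.27 (-0.49 to -0.04). For A on miR-181a, with 101 and 54 reads, and for T on miR-101b, with 197 and 148 reads, and on miR-124, with 2296 and 1403 reads, the interval held 0.

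Among the 62 reference tags with at least 20 reads of non-templated A in each library, the largest ratios in the other direction were those of the tag shared by miR-199a-3p and miR-199b (0.44), miR-383 (0.43), miR-672 (0.43), miR-219-3p (0.42) and miR-1 (0.38) on the log2 scale. miR-383 had 1797 young and 1354 old reads with A, or 6.35% and 8.55%, and miR-219-3p had 872 and 1120, or 2.27% and 3.04%. The interval lay above 0 for miR-383, miR-219-3p and miR-1, and held 0 for miR-672 and the shared tag, which had 45 and 50 and 22 and 65 reads with A. For T, with the same minimum, miR-140* and miR-30a were followed by miR-222, which had 117 and 189 reads, or 3.54% and 5.15%, with a log2 ratio of 0.54 (0.22 to 0.87). miR-30d (0.43) and miR-9* (0.38) came next on the log2 scale, and their intervals held 0.

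Levels of the members were set beside those of all tags. Of the 194 members, 15 had at least 2-fold more RPM in the old library, where 942 of the 6623 tags with at least 50 reads did (14.2%). At least 2-fold fewer were found for 39 members, against 1648 of those tags (24.9%). By RPM, lower levels thus outnumbered higher ones among members and among all tags. This balance depends on the scaling. With TMM factors, which move every log2 ratio by 0.61, 39 members were at least 2-fold higher and 4 lower. DESeq2's size factors, which move it by 0.64, gave 41 and 4. Counts over all tags are not given for these factors. The factors move all tags alike, so the change in these counts is not read as a trait of the members. Shares within a reference tag do not depend on the scaling.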

How the data were processed

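Small RNAs of 2 libraries were analysed. The authors aligned the reads to mm9 with SOAP, which also cut off the 3′ adapter, and deposited the raw read count of each distinct sequence, not normalized. The version of SOAP and the number of mismatches to the genome are not given in the sources used here, and a non-templated base is a mismatch, so additions may be under-counted. No column of another sample was used.

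Reference tags were found by the counts of known miRNAs in a supplementary table of the study, which served only to match names to tags. Their perfect matches were searched in NCBIM37, the assembly of mm9, with the gene annotation of that build, and 69 of the 86 equalled a RefSeq mature sequence. Of the 86, 64 had 1 perfect match and 22 had several. The members and lists were chosen with earlier results of these data known. In ratios, 0.5 replaced a count of 0. edgeR's quasi-likelihood test and DESeq2 were not fitted, because a single library of each age gives no spread between replicates, and only their factors served for scaling. Named miRNAs were the 5 with the most reads, the 5 with the highest share of each kind of addition, and for A and T the 5 largest ratios in each direction, with at least 20 such reads in each library. Values of other miRNAs were chosen after they had been seen. The Wilson intervals of the young library and the counts of members past a fold were tested on simulated reads. These reads were drawn independently, as the intervals assume, with no PCR copies and no spread between libraries. The counting intervals of ratios were not tested in this way. Alternatives were other minimums, denominators, scalings and subsets of reference tags. Python 3.11.15, numpy 2.4.6, scipy 1.17.1, R 4.3.3, edgeR 4.0.16 and DESeq2 1.42.0 were used.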

Additional observations from a re-analysis of the deposited data

Results flagged for a closer look

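Additions of 2 bases lie outside the single-base additions and were seen as well. Pairs that equalled the next 2 mm9 bases at no match of the reference tag were counted, whether or not the first base alone was templated. The pair AA had 19863 reads in the young and 25980 in the old library, and the pair TT had 12773 and 17647. The pair AT had more, with 47882 and 44194 reads. The values of AA and TT were far above the 3 reads that a count of 0 allows. AA that followed a non-templated A had 15945 young and 21382 old reads, which was 12.04% and 8.58% of the reads with the single A. AT that followed a non-templated A had 17609 and 21544 reads.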

How the results depend on the processing

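No paired analysis was possible because each age has 1 library, and for the same reason no library could be left out. Of 64 alternatives over 8 results, 18 kept the value near the one reported, 35 moved it and 11 reversed its direction. The cause was not tested. On the log2 scale, the pooled ratios for non-templated A, T, C or G, and templated bases were 0.18, -0.66, 0.05 and -0.32. In that order they were 0.19, -0.72, 0.30 and -0.34 with matches in annotated precursors only, and 0.28, -0.56, 0.16 and -0.22 over all tags of the same start. Without let-7 and miR-98 they were -0.17, -0.31, -0.26 and -0.31, with a single perfect match 0.079, -0.45, 0.25 and -0.12, and as the median over reference tags -0.013, 0.15, -0.0067 and 0.067. Without the tag with the most reads of its class, A was 0.17, T -0.86 and templated bases -0.13. With the same weights in both libraries, chosen after the data had been seen, A was 0.11, T 0.12 and templated bases 0.10, and only where the base is not templated, A was 0.13 and T 0.14. With a minimum of 10000 reads T was -0.63 and templated bases 0.12, and with tags most abundant of their start -0.61 and 0.074. Without star sequences templated bases were -0.316. The number of members tested changed with these settings. The 7 of 194 members 1.5-fold higher became 3 of 153 with at least 200 reads and 23 of 257 with at least 10. They became 1 of 90 with the minimum of 10000 and 4 of 125 for the most abundant tags. The 3 of 194 lower became 15 of 257 with at least 10 reads and 1 of 137 with a single perfect match. By RPM, 15 higher and 39 lower became 39 and 4 (TMM), 41 and 4 (size factors of DESeq2), and 29 and 11 (depth without let-7 starts). No counts over all tags are given beside these. With at least 10 reads 60 of 257 were lower by RPM, also without counts over all tags. At low depth, as for non-templated C, the sampling of reads alone can give a 1.5-fold difference.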
